A study of Mus musculus with 12 samples.

Results

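Livers of 3 hypothyroid mice with a mutated liver corepressor NCoR were compared with livers of 3 euthyroid control mice, to see which genes lay off the normal euthyroid level and which lay at it when low thyroid hormone was combined with the mutation. These 6 arrays, of 12 in the series, were chosen by their sample titles: mutant hypothyroid replicates 5, 6 and 7, and control euthyroid replicates 13, 14 and 15. The other 6 arrays were 3 hypothyroid controls (replicates 17, 18 and 20) and 3 euthyroid mutants (replicates 2, 3 and 4), and they give the change made by each factor alone. The mutants are the mice the series calls L-NCoR∆ID. As published background, these mice make in hepatocytes, through a Cre driven by the albumin promoter, an NCoR that lacks domains for binding nuclear receptors, so other liver cells keep normal NCoR. The labels give no strain, age or sex, do not say how the mice were made hypothyroid, and do not say whether the mice of a group came from separate litters, so p-values here measure the spread between these mice.

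Thyroid hormone acts through nuclear receptors, of which the beta form prevails in hepatocytes. Without hormone, the receptor on an induced gene holds NCoR, which carries a histone deacetylase complex and keeps the gene low, while hormone releases NCoR and lets coactivators bind. In the liver the hormone is known for its control of its own conversion, of fatty acid synthesis, of cholesterol and bile acid handling and of mitochondrial shuttles.

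Levels are log2 signals after RMA (robust multi-array average), so a difference of 1 is 2-fold, and levels of different genes are not compared because probes differ in brightness. The probe design groups probes into transcript clusters, and 21789 clusters with exactly 1 gene symbol (19938 genes) were tested. Array medians lay between 4.16 and 4.32. Liver identity was plain, with 10 hepatocyte markers averaging 12.26 to 12.39 in euthyroid controls and 12.31 to 12.49 in hypothyroid mutants. All 6 arrays had high Xist (9.55 to 9.88 in controls and 9.30 to 9.63 in mutants) and low signal (1.57 to 2.32) of 3 Y-linked genes, Eif2s3y, Uty and Kdm5d. No cluster was named Ncor1 (0 clusters), so its transcript was not analysed here. Control replicate 14 (54.76) and mutant replicate 7 (-40.15) stood apart from the other arrays on the first principal component (36.8% of the variance), the former high and the latter low. The spread of log2 values within an array, as their SD, was also wider in hypothyroid mutants (2.32 to 2.35) than in euthyroid controls (2.22 to 2.28), with no overlap, so signal range and group cannot be told apart. Results are therefore given with and without the 2 outlying arrays, replicates 14 and 7, left out together. In bulk liver, fewer cells of a type and less RNA per cell cannot be told apart.

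In limma, 1814 clusters passed an adjusted p of 0.05 (8.33% of those tested), 1281 of them higher (5.88%) and 533 lower (2.45%) in hypothyroid mutants. Most were modest, with a median size of 0.69, and 181 higher and 37 lower clusters differed by more than 2-fold. The count rested on single arrays: it was 92 higher and 40 lower without both outlying arrays, between 183 clusters (without mutant replicate 7) and 5193 (without control replicate 13) when 1 array was left out, and 11 higher and 8 lower with array SD as a covariate. A group of 164 clusters (128 higher and 36 lower, of 155 genes) was called whichever of the 12 arrays was left out. Quantile normalization gave 623 higher and 467 lower clusters (57.2% higher, against 70.6% as deposited and 86.4% after median centring). Among 10894 clusters above the median level, tested alone, 19.4% were called and the median difference was 0.157. The 8.33% set beside gene lists below is therefore a low yardstick for well expressed lists. With all 12 arrays each factor alone gave fewer calls from the same fit. Hypothyroid against euthyroid controls gave 242 clusters (1.11%), 139 higher (0.638%) and 103 lower (0.473%). Euthyroid mutants against euthyroid controls gave 28 (0.129%), 27 higher (0.124%) and 1 lower (0.00459%). That order did not hold in every setting. Without both outlying arrays hypothyroid against euthyroid controls gave 209 calls, more than the 92 higher and 40 lower of hypothyroid mutants. It gave 247 without mutant replicate 7, against 183, and 137 with array SD as a covariate, against 11 higher and 8 lower. All 3 comparisons share the euthyroid control arrays, so their values are set side by side and not tested against each other.

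**Figure D1:**
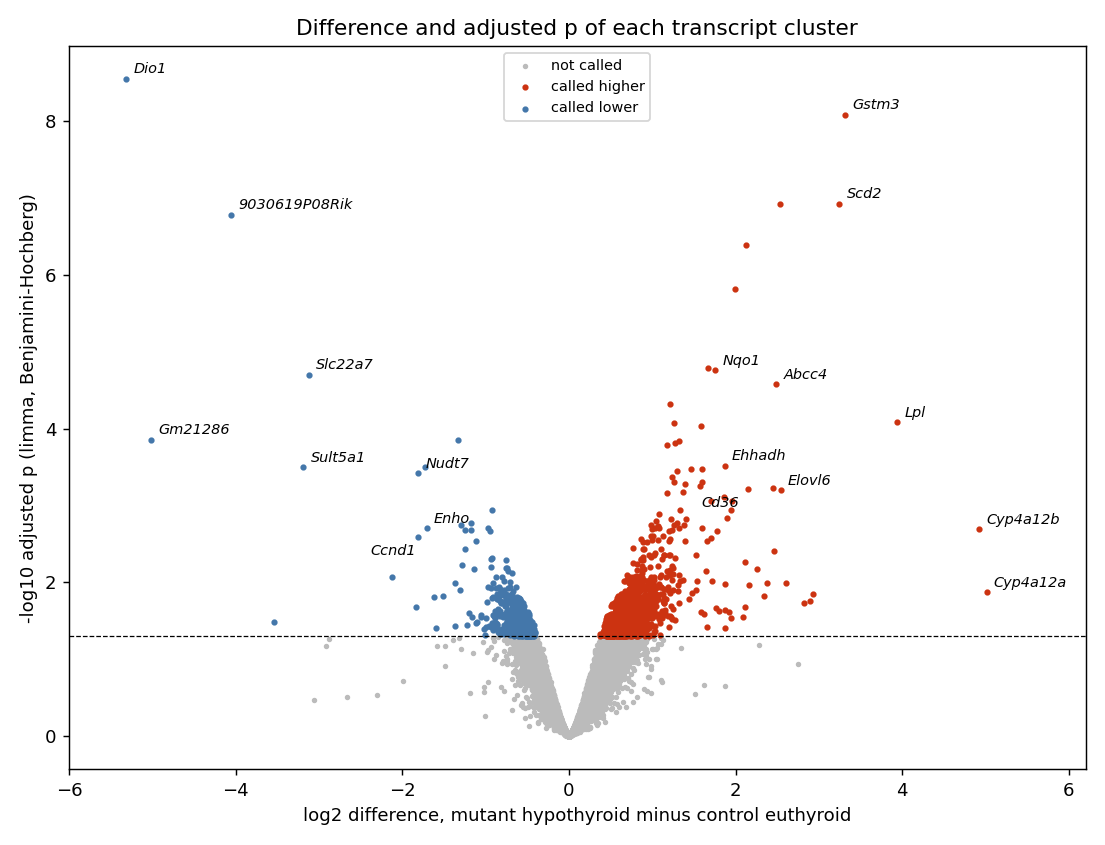
Log2 difference of hypothyroid mutants from euthyroid controls (x axis) against -log10 of limma's adjusted p (y axis) for 21789 transcript clusters, with the dashed line at an adjusted p of 0.05. Dio1 at -5.32 and Gstm3 at 3.31 lie highest, and red points (1281 higher) outnumber blue ones (533 lower).

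Genes of thyroid hormone action did not move as 1 group: deiodinase stayed far down, a mitochondrial shuttle gene sat at the control level, and lipogenic targets stood above it. Dio1, the liver deiodinase that converts thyroxine into the active hormone, read 8.14, 8.91 and 8.67 in euthyroid controls 13, 14 and 15 and 3.20, 3.72 and 2.83 in hypothyroid mutants 5, 6 and 7. Every mutant lay far below every control, near the lower end of the array. The difference was -5.32 ± 0.21 (SE), or 39.9-fold lower (limma adjusted p = 2.84e-09). The mutants read below every array's median, near the background of the array, so this fold is a lower bound. The differences of the other groups from euthyroid controls were -5.34 for hypothyroid controls and 1.05 for euthyroid mutants (the last not called, adjusted p = 0.0773 in limma).

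Gpd2, the mitochondrial glycerol phosphate dehydrogenase, read 7.26, 6.75 and 7.16 in euthyroid controls and 7.31, 6.88 and 6.86 in hypothyroid mutants. The groups overlapped, and the difference was -0.04 with a 95% interval of -0.48 to 0.40. Hypothyroid controls lay at 4.91, 5.79 and 5.61, below all of these. Malic enzyme, Me1, which makes NADPH for fatty acid synthesis, read 9.72, 8.85 and 9.07 in controls and 10.82, 10.72 and 11.21 in mutants in 1 of its 2 clusters. All 3 mutants were higher, by 1.70 ± 0.222 (SE, limma adjusted p = 0.000863), and its other cluster rose by 1.86. In the first cluster euthyroid mutants differed from euthyroid controls by 1.55 (limma adjusted p = 0.0107) and hypothyroid controls by 0.12 (not called). Thrsp, a lipogenic gene that thyroid hormone induces, read 8.49, 7.96 and 8.35 in controls and 9.91, 9.33 and 9.87 in mutants. The rise of 1.44 ± 0.3 (SE, limma adjusted p = 0.0162) was 1.2 and not called without both outlying arrays (limma adjusted p = 0.198). Euthyroid mutants differed from euthyroid controls by a larger 2.07 (limma adjusted p = 0.0107) and hypothyroid controls by -0.73 (not called).

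The receptor genes Thra (-0.09, 95% interval -0.37 to 0.19) and Thrb (0.29, -0.14 to 0.73) were not called. Klf9, a transcription factor induced by thyroid hormone, differed by -0.62 (limma adjusted p = 0.0682) and was not called. Of 25 measured genes known to be induced by thyroid hormone, 5 rose (Thrsp, Me1, Fasn, Acaca and Aldh1a7), 4 fell (Dio1, Pck1, Cpt1a and Sult1a1) and 16 did not pass. That is 36% called, against 8.33% of all clusters. The median of the 25 was -0.06, beside -0.037 for all clusters and 0.157 for clusters above the median level. Without both outlying arrays 2 rose and 2 fell. Among 16 genes known to be repressed by the hormone 3 rose (Gstm3, Cyp2d9 and Ephx1) and 0 fell, with a median of 0.03, while 6 of the 16 (37.5%) had an unadjusted p under 0.05, a cut that 29.2% of all clusters passed. Of 13 genes of hormone transport and conversion, Dio1 fell and Serpina7, which encodes thyroxine-binding globulin, rose (15.4% called, against 8.33% of all clusters). Serpina7 read 6.63, 4.21 and 5.97 in controls and 7.66, 7.70 and 9.93 in mutants, 7.08-fold higher (limma adjusted p = 0.0187), but 1.37 on the log2 scale and not called without both outlying arrays (adjusted p = 0.172).

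**Figure D2:**
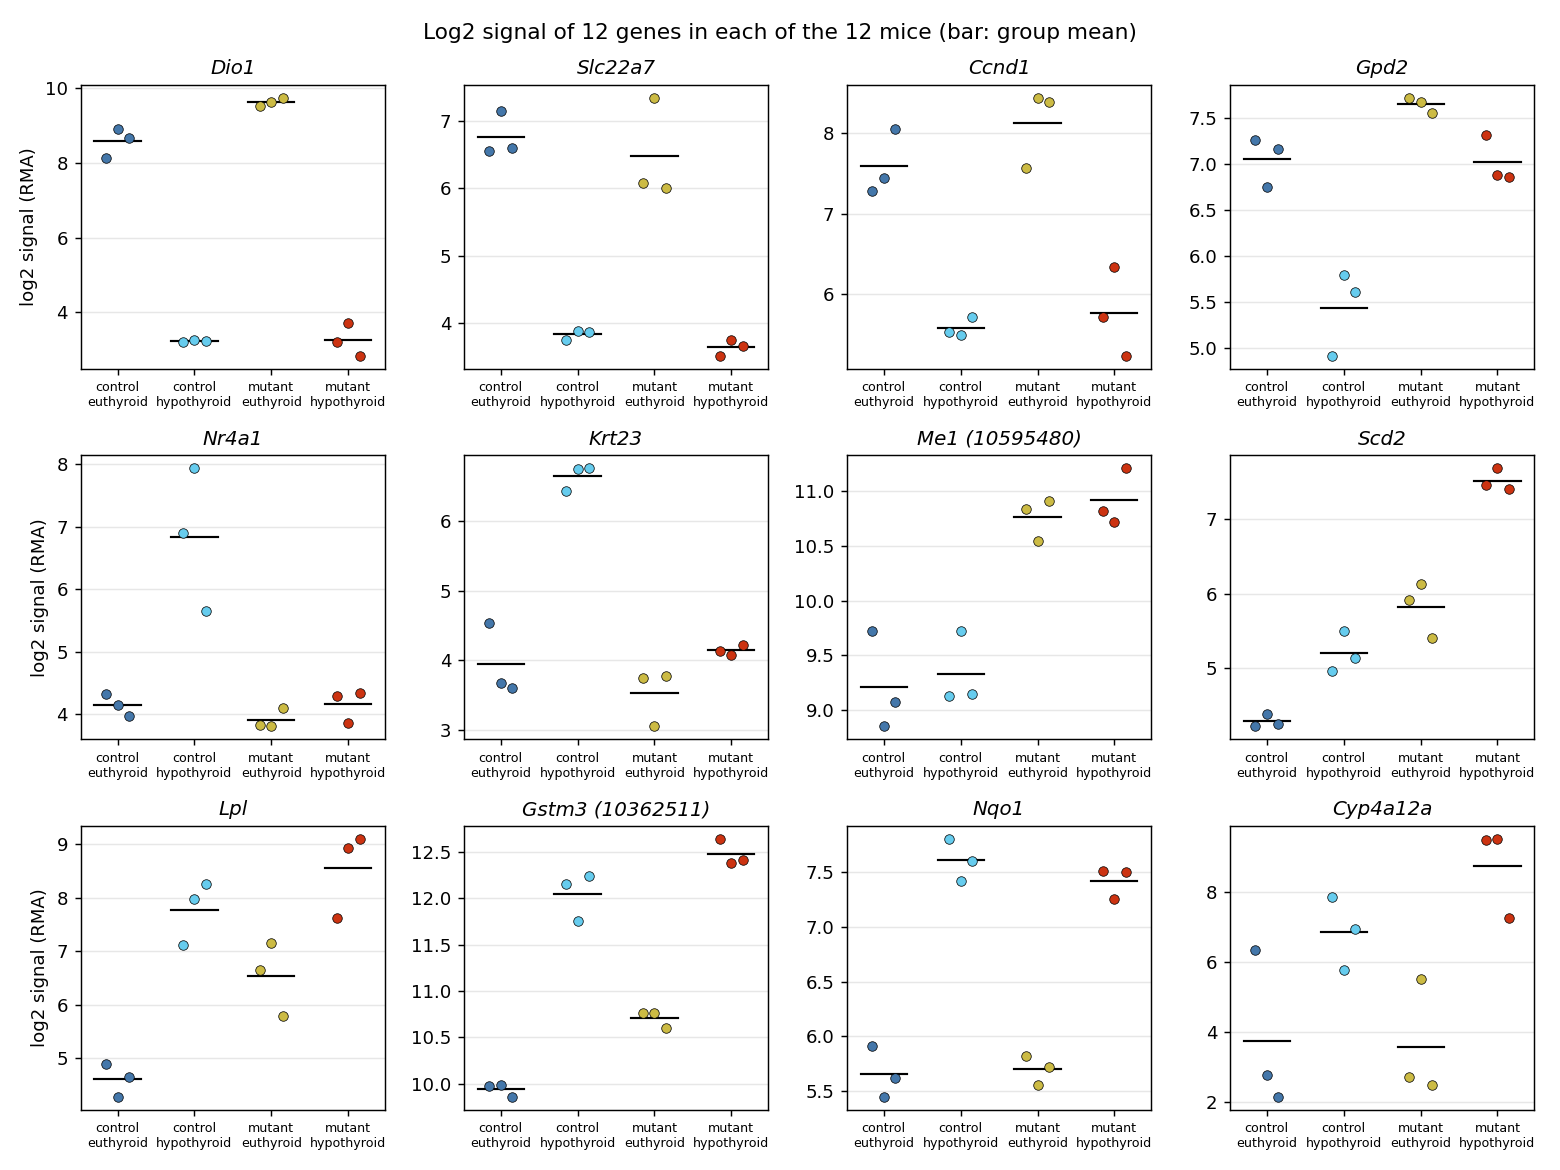
Log2 signal (y axis, a separate scale in each panel) of 12 genes in each mouse of the 4 groups (x axis), with a black bar at the group mean. Dio1, Slc22a7 and Ccnd1 are low in both hypothyroid groups, Gpd2, Nr4a1 and Krt23 of hypothyroid mutants lie at the level of euthyroid controls, and Scd2 is highest in hypothyroid mutants (7.41 to 7.69).

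Of the 242 clusters that hypothyroidism changed in controls, 162 were also called off the euthyroid control level, in the same direction, in hypothyroid mutants. Of these, 101 were raised and 61 lowered. Another 16 returned, meaning that hypothyroid mutants differed from hypothyroid controls in the opposite direction and were not called against euthyroid controls. Hypothyroid mutants differed from hypothyroid controls in 57 clusters in all (0.262%), 47 higher (0.216%) and 10 lower (0.0459%). The remaining 64 met neither rule, although 48 of them had a 95% interval within 2-fold of the euthyroid control level. In 0 of the 242 was the opposite sign called. These counts describe comparisons that share arrays and carry no test. Without both outlying arrays 62 stayed off and 26 returned, 54 and 13 of them among the first 162 and 16.

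Besides Dio1, the genes that stayed lowered included Slc22a7, the organic anion transporter OAT2. It read 6.55, 7.15 and 6.6 in euthyroid controls and 3.52, 3.76 and 3.66 in hypothyroid mutants. The groups were far apart (-3.12 ± 0.272 SE, 8.69-fold lower, limma adjusted p = 2e-05), and hypothyroid controls differed from euthyroid controls by -2.93. As with Dio1, the mutants read below every array's median, so the fold may be a lower bound. The sulfotransferase Sult5a1 read 7.03, 8.68 and 7.04 against 4.25, 4.66 and 4.28, which made it 9.11-fold lower (limma adjusted p = 0.000315). Both calls were kept without the outlying arrays.

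Ccnd1, the cyclin that starts the passage through G1, read 7.28, 7.44 and 8.04 in controls and 5.72, 6.34 and 5.24 in mutants. It was 3.53-fold lower (limma adjusted p = 0.00257), beside -2.0 for hypothyroid controls and 0.54 for euthyroid mutants. Nudt7, a peroxisomal coenzyme A hydrolase, fell by 1.81 ± 0.214 (SE) and Enho, which encodes the secreted peptide adropin, fell by 1.71 ± 0.247 (SE). The leukaemia inhibitory factor receptor Lifr, the E-cadherin gene Cdh1 and the epidermal growth factor receptor Egfr, chosen after their values were seen, fell by 1.37, 1.30 and 1.11. Of these, Egfr was not called without both outlying arrays (adjusted p = 0.0506 in limma).

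Tlcd2, a membrane lipid gene, stayed lowered and yet lay between the groups. It read 9.10, 9.17 and 8.91 in euthyroid controls, 7.69, 7.35 and 8.21 in hypothyroid mutants and 5.63, 6.87 and 6.17 in hypothyroid controls, with no overlap between any of the 3. Against euthyroid controls the difference was -1.31 (limma adjusted p = 0.0125, and not called without mutant replicate 6), and hypothyroid mutants stood 1.53 above hypothyroid controls (limma adjusted p = 0.0205). The uncharacterised 9030619P08Rik fell by 4.06 and Gm21286 by 5.02, but Gm21286 belongs to a group of similar predicted genes that may share probes. A1bg (-3.54), Ces3b (-1.84), Cyp17a1 (-1.62) and Elovl3 (-1.6) fell with all arrays and were not called without both outlying arrays, with adjusted p in limma from 0.0994 to 0.297.

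Genes that stayed raised included Lpl, lipoprotein lipase, which frees fatty acids from circulating triglyceride. It read 4.89, 4.28 and 4.66 in euthyroid controls and 7.62, 8.93 and 9.10 in hypothyroid mutants. Every mutant lay well above every control, and the rise was 15.4-fold (3.94 ± 0.39 SE, limma adjusted p = 8.23e-05). Hypothyroid controls stood 3.16 above euthyroid controls and euthyroid mutants 1.93 (not called, adjusted p = 0.081 in limma). Lpl is also an adipocyte marker, and of the 7 adipocyte markers measured it was the 1 called, with Adipoq at -0.04 (mean level 2.20 on the log2 scale) and Plin1 at -0.54.

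Other genes that stayed raised were Rgs16 (2.12), a regulator of G protein signalling, the galectin Lgals1 (1.71), Raet1d (2.16), a ligand of natural killer cells, and Cyp2d9 (1.80). Without both outlying arrays Lgals1 remained called, while Rgs16, Raet1d and Cyp2d9 did not (limma adjusted p 0.191, 0.0938 and 0.144).

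**Figure D3:**
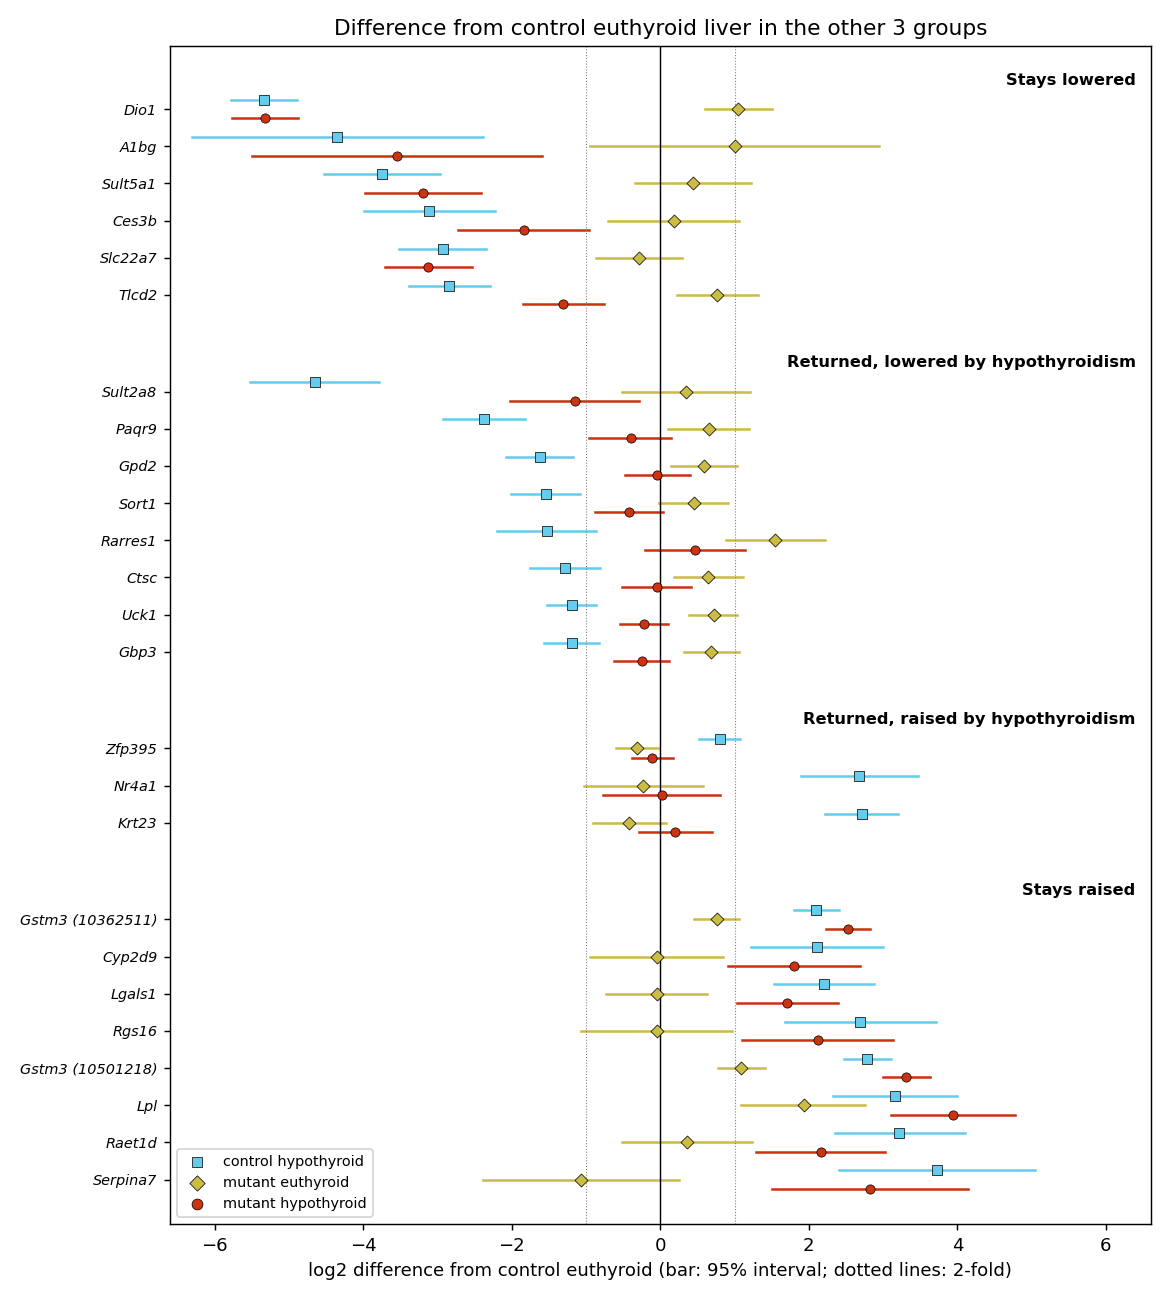
Log2 difference from euthyroid controls (x axis, with its 95% interval) of hypothyroid controls (squares), euthyroid mutants (diamonds) and hypothyroid mutants (circles) for the named genes of each kind, without unnamed predicted genes. Circles of the returned genes lie between -1.15 (Sult2a8) and 0.47 (Rarres1), away from the squares.

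Of the 16 genes that returned, 13 were lowered and 3 raised by hypothyroidism in controls, and 14 had a 95% interval wholly within 2-fold of the euthyroid control level. Paqr9, a membrane receptor of the progestin and adipoQ family, read 9.93, 9.37 and 9.77 in euthyroid controls, 7.35, 7.69 and 6.91 in hypothyroid controls and 8.73, 9.91 and 9.20 in hypothyroid mutants. The mutants overlapped euthyroid controls (-0.40, 95% interval -0.96 to 0.15) and lay 1.96 above hypothyroid controls (limma adjusted p = 0.00432). The sorting receptor gene Sort1 differed from euthyroid controls by -0.42, the protease gene Ctsc by -0.05, the uridine kinase gene Uck1 by -0.22, Gbp3 by -0.25 and Rarres1 by 0.47, while hypothyroid controls differed by -1.19 to -1.54.

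Sult2a8, a bile acid sulfotransferase, came back furthest but not fully. It read 9.65, 8.83 and 9.12 in euthyroid controls, 3.83, 5.81 and 4.0 in hypothyroid controls and 7.46, 8.13 and 8.56 in hypothyroid mutants. All 3 mutants lay below all 3 euthyroid controls, although the difference of -1.15 (95% interval -2.02 to -0.28) was not called (limma adjusted p = 0.082). Without hypothyroid control 18, or with array weights, Sult2a8 was called lower than in euthyroid controls and no longer met the rule for return. Its family has near-identical copies that may share probes.

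The 3 genes that hypothyroidism raised and that returned were Nr4a1, Krt23 and Zfp395. The orphan nuclear receptor gene Nr4a1 read 4.32, 4.15 and 3.97 in euthyroid controls, 6.90, 7.93 and 5.66 in hypothyroid controls and 4.29, 3.87 and 4.34 in hypothyroid mutants. The mutants overlapped euthyroid controls (0.02, 95% interval -0.77 to 0.81) and none reached the lowest hypothyroid control. Krt23, a keratin gene, read 4.54, 3.68 and 3.60, then 6.44, 6.75 and 6.76, then 4.13, 4.08 and 4.22 in the same order of groups. It differed from euthyroid controls by 0.20 (95% interval -0.29 to 0.70).

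The remaining returned genes, chosen for mention after their values were seen, include the bile acid enzyme Cyp27a1 (0.10), the pyruvate dehydrogenase phosphatase Pdp2 (-0.15), Csrp3 (0.35), Tnfaip2 (0.19) and the drug-metabolising Cyp3a11 (0.47). In the last, hypothyroid mutants (12.44, 12.35 and 12.15) all stood above euthyroid controls (12.10, 11.91 and 11.51) without being called (limma adjusted p = 0.12). Returned without both outlying arrays as well were 13 of the 16, while Sort1, Cyp27a1 and Cyp3a11 no longer met the rule. The rule also rests on the hypothyroid controls. Without hypothyroid control 17, 18 or 20, just 9, 9 and 7 of the 16 still met it.

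A formal test of non-additivity, the difference between genotypes in the change with thyroid state, called 0 of 21789 clusters in limma (0%), with 600 (2.75%) at an unadjusted p under 0.05. The fit with array weights called 8. It weighted control 15 at 29.2, against 0.323 and 0.223 for controls 13 and 14, and called 45.2% of clusters between hypothyroid mutants and euthyroid controls. Without array weights, the smallest adjusted p among named genes was that of Krt23 (-2.09 ± 0.328 SE, limma adjusted p = 0.287), followed by Sult2a8 (3.16 ± 0.575 SE, 0.705). The return of these 16 genes was therefore not resolved from the sum of both single changes.

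Promoters from RefSeq (assembly GRCm38.p6, 250 bases before to 50 after the most upstream listed start, 5′ to 3′ on the gene's strand) are shown for 4 genes: Dio1 and Gpd2, of which the first stayed low and the second returned, and Me1 and Abcc4, which rose. Capitals mark matches of 4 motifs searched on both strands: AGGTCA, the core site of many nuclear receptors; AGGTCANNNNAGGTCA, its repeat with a gap, which contains the first; TGACNNNGC, the core of the antioxidant response element; and CCAAT. Dio1 lies at chr4:107307119-107307418 on the minus strand, Gpd2 at chr2:57237428-57237727 on the plus strand, Me1 at chr9:86695865-86696164 and Abcc4 at chr14:118706170-118706469, both on the minus strand.
Dio1: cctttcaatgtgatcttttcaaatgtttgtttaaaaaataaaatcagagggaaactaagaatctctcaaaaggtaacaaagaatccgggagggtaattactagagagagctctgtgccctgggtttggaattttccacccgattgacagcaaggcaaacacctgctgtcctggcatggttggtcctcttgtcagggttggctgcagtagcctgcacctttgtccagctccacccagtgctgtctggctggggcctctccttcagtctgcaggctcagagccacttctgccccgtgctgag
Gpd2: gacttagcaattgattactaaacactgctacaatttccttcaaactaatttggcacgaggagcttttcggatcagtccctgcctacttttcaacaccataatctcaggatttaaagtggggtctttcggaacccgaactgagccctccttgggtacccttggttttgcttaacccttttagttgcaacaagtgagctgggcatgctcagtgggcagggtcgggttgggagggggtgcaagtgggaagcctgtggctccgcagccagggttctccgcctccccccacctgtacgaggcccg
Me1: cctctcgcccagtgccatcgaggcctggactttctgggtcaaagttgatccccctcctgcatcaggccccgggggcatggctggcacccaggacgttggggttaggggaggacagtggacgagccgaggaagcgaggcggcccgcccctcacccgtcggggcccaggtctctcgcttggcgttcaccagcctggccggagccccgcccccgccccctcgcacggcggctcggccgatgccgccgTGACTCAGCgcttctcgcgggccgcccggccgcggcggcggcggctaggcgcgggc
Abcc4: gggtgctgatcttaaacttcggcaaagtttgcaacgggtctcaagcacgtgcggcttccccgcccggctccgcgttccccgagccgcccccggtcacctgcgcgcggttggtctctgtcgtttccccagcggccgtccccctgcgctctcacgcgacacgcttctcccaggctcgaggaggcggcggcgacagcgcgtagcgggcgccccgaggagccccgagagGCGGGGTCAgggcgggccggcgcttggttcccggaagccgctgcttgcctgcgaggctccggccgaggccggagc
Me1 held TGACTCAGC from position -6 and Abcc4 held GCGGGGTCA from position -25 relative to the start, both matches of TGACNNNGC, which 12.4% of 32851 promoters held. The other motifs stood in 16.3% (AGGTCA), 0.0152% (the repeat) and 37.4% (CCAAT) of promoters, and none of them matched in these 4 windows. A match describes letters only.

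Called genes of lipid synthesis nearly all rose in hypothyroid mutants. Among 29 measured genes that make fatty acids and triglycerides, 12 rose (44.8% called in all, against 8.33% of all clusters), 1 fell and 16 did not pass, with a median of 0.50. The median was 0.02 for hypothyroid controls and 0.40 for euthyroid mutants, where 7 were called higher. Without both outlying arrays 6 rose and 0 fell (median 0.41), after quantile normalization 10 rose and 3 fell (median 0.33), and with array SD as a covariate 1 rose. Scd2, a stearoyl-CoA desaturase that makes monounsaturated fatty acids, read 4.21, 4.38 and 4.24 in euthyroid controls and 7.47, 7.69 and 7.41 in hypothyroid mutants. It was 9.47-fold higher (3.24 ± 0.183 SE, limma adjusted p = 1.19e-07), beside 0.92 for hypothyroid controls and 1.54 for euthyroid mutants, and was called under all 22 alternatives. Its euthyroid controls read near the array medians, so the fold may be a lower bound.

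Elovl6, which elongates palmitate, read 8.60, 7.52 and 8.52 in controls and 10.59, 10.57 and 11.10 in mutants. The groups were separate, and the rise was 5.81-fold (limma adjusted p = 0.000637), beside 0.56 for hypothyroid controls and 2.0 for euthyroid mutants. Acetyl-CoA carboxylase, Acaca, rose by 1.66 ± 0.255 (SE; limma adjusted p = 0.00289), the liver desaturase Scd1 by 1.37 ± 0.174 (SE; 0.00067) and fatty acid synthase, Fasn, by 1.23 ± 0.21 (SE; 0.00613, and 0.0969 without both outlying arrays). Acacb (1.24), Acly (1.08), Acss2 (1.52), Gpam (1.28) and Pklr (0.64) rose as well, whereas the master regulators Srebf1 (0.28) and Mlxipl (0.44) were not called. Pnpla3, a lipid droplet protein, stood 0.76 above controls and was not called (limma adjusted p = 0.0662), beside 2.61 in euthyroid mutants (limma adjusted p = 0.000637).

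Among 20 genes that make or take up cholesterol, 8 rose (40%, against 8.33% of all clusters called), 0 fell and 11 had an unadjusted p under 0.05. Their median was 0.49, beside 0.06 for hypothyroid controls and a larger 0.75 for euthyroid mutants. Squalene epoxidase, Sqle, read 7.65, 7.64 and 7.87 in controls and 8.71, 8.55 and 9.22 in mutants, and rose by 1.10 ± 0.212 (SE, limma adjusted p = 0.0116). Its difference was 1.24 for euthyroid mutants (limma adjusted p = 0.0303) and -0.22 for hypothyroid controls (not called). Cyp51, Pmvk and Fdps, also enzymes of the pathway, rose by 1.04, 1.02 and 0.83. Without both outlying arrays 0 of the 20 were called, with a median of 0.36. Among 17 targets of LXR, the oxysterol receptor, 8 rose and 1 fell (52.9% called, against 8.33% of all clusters, median 0.45), and 2 rose without both outlying arrays. The phospholipid transfer protein Pltp read 6.63, 6.78 and 6.43 in controls and 8.37, 9.33 and 9.52 in mutants, 5.49-fold higher (limma adjusted p = 0.00384, and 0.0568 without both outlying arrays), and the sterol exporters Abcg5 and Abcg8 rose by 1.17 and 0.84.

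Of 25 genes of lipid droplets, fatty acid binding and lipolysis 7 rose and 1 fell (32% called, against 8.33% of all clusters, median 0.09). Cd36, a fatty acid transporter, read 7.67, 6.61 and 8.04 in controls and 9.57, 9.65 and 9.55 in mutants. The mutants were tightly grouped and all higher, by 2.15 ± 0.269 (SE; limma adjusted p = 0.000609), beside 1.85 for hypothyroid controls and 1.47 for euthyroid mutants. Pparg, the nuclear receptor of fat storage, rose by 1.39 and Fabp5, a fatty acid binding protein, by 2.35 and 2.61 in 2 clusters, although Fabp5 was not called without both outlying arrays. Mgll, which splits monoglycerides, fell by 1.28 ± 0.217 (SE).

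Of 28 PPARA targets and oxidation genes 4 rose and 2 fell (21.4% called, against 8.33% of all clusters, median 0.11), and 1 rose without both outlying arrays. That gene was Ehhadh, of peroxisomal beta oxidation, which read 10.23, 9.28 and 9.60 in controls and 11.45, 11.66 and 11.61 in mutants and rose 3.66-fold (limma adjusted p = 0.000303), beside 0.49 for hypothyroid controls and 1.48 for euthyroid mutants. Pdk4, which shuts off pyruvate dehydrogenase, rose by 1.88 and Acot1 by 1.2, both not called without both outlying arrays, while Cpt1a, the gate of mitochondrial oxidation, fell by 0.65 and Creb3l3 by 0.69. None of 36 genes of oxidative phosphorylation was called in limma (0), with 7 (19.4%) at an unadjusted p under 0.05, against 29.2% of all clusters, and a median of 0.14, which was -0.07 after quantile normalization.

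**Figure D4:**
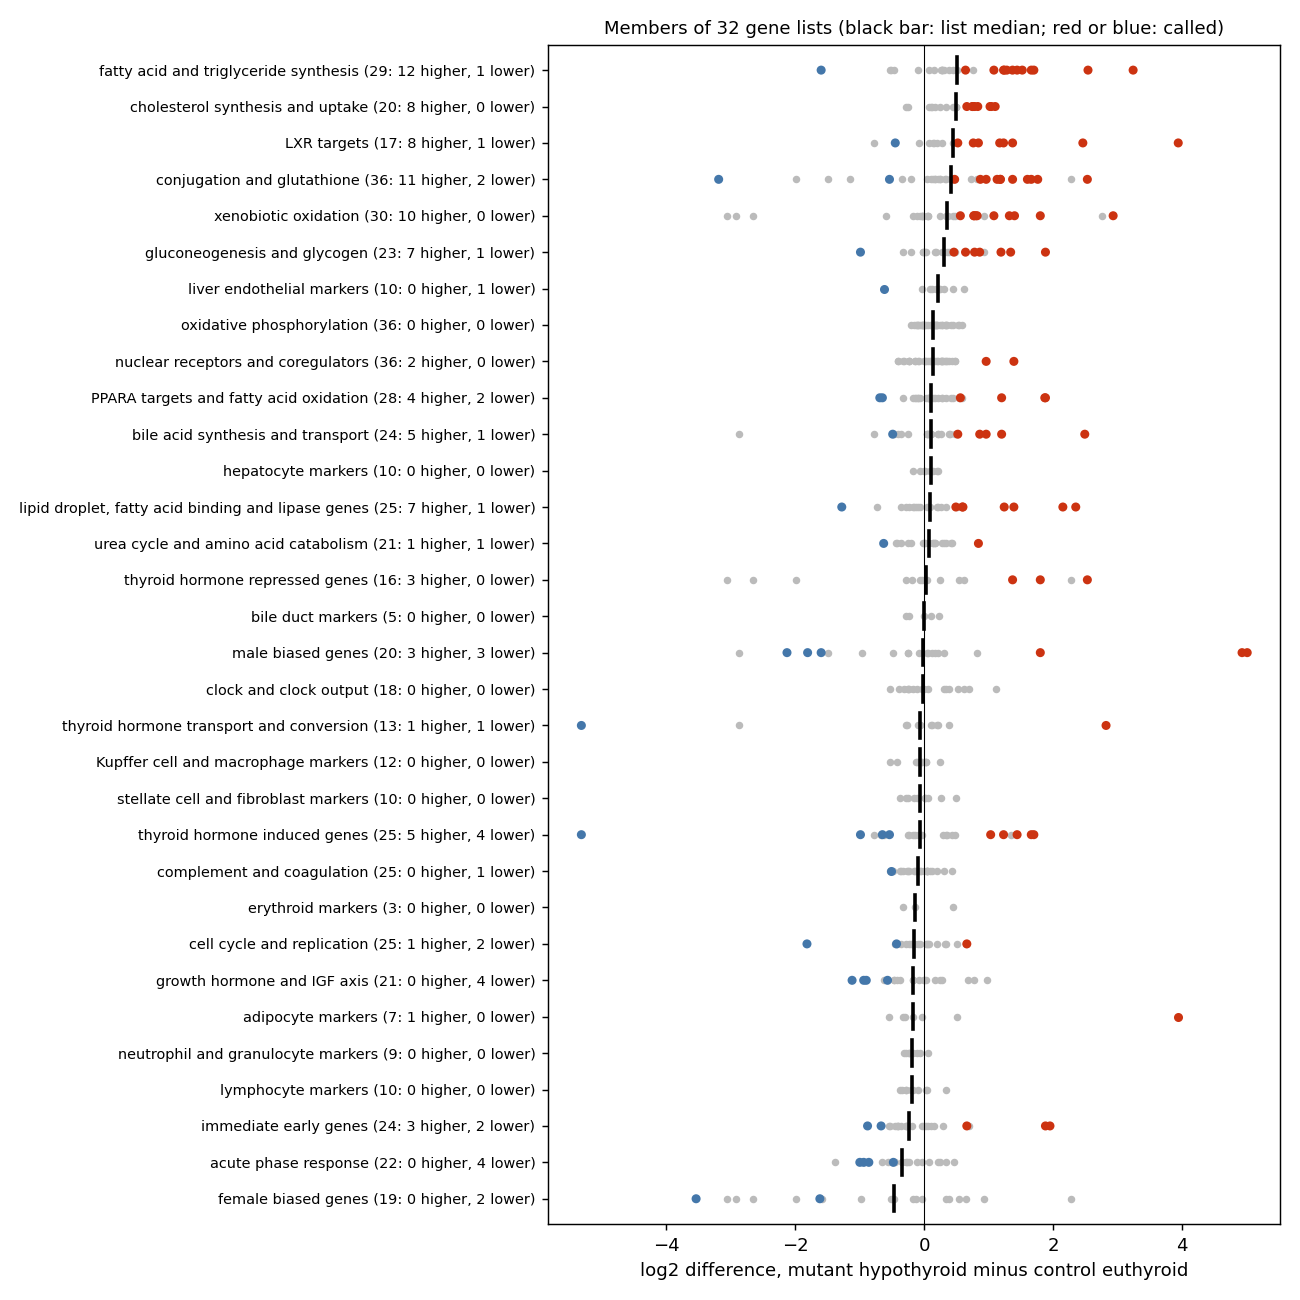
Log2 difference of hypothyroid mutants from euthyroid controls (x axis) for each member of 32 gene lists (rows, ordered by the list's median, black bar), with called members in red (higher) or blue (lower). The medians of fatty acid synthesis (0.50), cholesterol synthesis (0.49) and LXR targets (0.45) lie furthest right, and those of female biased genes (-0.47) and the acute phase response (-0.34) furthest left.

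Of 36 genes of conjugation and glutathione 11 rose, 2 fell and 23 did not pass (36.1% called, against 8.33% of all clusters, median 0.41). Without both outlying arrays 7 rose and 1 fell. Gstm3, a glutathione transferase, read 9.17, 8.92 and 9.34 in euthyroid controls and 12.71, 12.37 and 12.28 in hypothyroid mutants in 1 cluster. It was 9.92-fold higher there (3.31 ± 0.148 SE, limma adjusted p = 8.27e-09) and 5.79-fold higher in its other cluster, beside 2.78 and 2.10 on the log2 scale for hypothyroid controls. Gstm4 (1.66), Gstm6 (1.6), Gstm1 (1.18) and Gstm2 (1.18) rose too, the last 3 chosen for mention after their values were seen. These genes lie in a family of close copies, so part of their signal may be shared.

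Nqo1, a quinone reductase, read 5.91, 5.45 and 5.62 in controls and 7.51, 7.25 and 7.50 in mutants. The groups were separate and the rise was 3.38-fold (limma adjusted p = 1.74e-05), beside 1.94 for hypothyroid controls and 0.04 for euthyroid mutants. The exporter Abcc4, which carries conjugates and bile acids out across the basolateral membrane, read 5.52, 5.26 and 5.17 in controls and 7.81, 8.07 and 7.53 in mutants, 5.6-fold higher (limma adjusted p = 2.66e-05), beside 1.55 and 0.64. Both were called under all 22 alternatives. Ugdh, which makes the donor of glucuronidation (1.57), and Pgd, of the pentose phosphate pathway (1.59), rose as well and were named after their values were seen.

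Among 30 genes of xenobiotic oxidation 10 rose and 0 fell, with 17 (56.7%, against 29.2% of all clusters) at an unadjusted p under 0.05 and a median of 0.35, and 4 rose without both outlying arrays. The carboxylesterase Ces2a read 9.64, 9.45 and 9.31 in controls and 10.80, 10.76 and 10.79 in mutants, a rise of 1.32 ± 0.14 (SE, limma adjusted p = 0.000145). Euthyroid mutants stood 1.13 above euthyroid controls (limma adjusted p = 0.00347), while hypothyroid controls differed by -0.49 (not called). Aldehyde oxidase, Aox1, rose by 1.4 and Cyp2c55 by 2.93, the latter not called without both outlying arrays. Of 24 bile acid genes 5 rose and 1 fell (25% called, against 8.33% of all clusters), with a median of 0.10, and -0.06 after quantile normalization. Among those that rose were Abcc4, Scp2 (1.2), Nr0b2 (0.96) and the exporter Abcc3 (0.86), of which Scp2 and Nr0b2 were not called without both outlying arrays.

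In 23 genes of gluconeogenesis and glycogen 7 rose and 1 fell (34.8% called, against 8.33% of all clusters, median 0.31). Without both outlying arrays 1 rose and 1 fell. The glycogen branching enzyme Gbe1 rose by 1.34 ± 0.18 (SE; limma adjusted p = 0.00113). Pck1, the gluconeogenic carboxykinase, read 11.71, 11.59 and 11.44 in controls and 10.07, 10.46 and 11.22 in mutants, lower in all 3, and fell by 0.99 ± 0.248 (SE; limma adjusted p = 0.0291, and not called without control 14 or 15 or mutant 5 or 6). Prodh, of proline breakdown, fell by 0.63 and Etnppl rose by 0.84 among 21 genes of the urea cycle and amino acid breakdown, neither called without both outlying arrays. That is 9.52% of the list, beside 8.33% of all clusters and 19.4% of clusters above the median level tested alone.

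Sex biased genes did not move in 1 direction. Of 20 male biased genes 3 rose (Cyp4a12a, Cyp4a12b and Cyp2d9) and 3 fell (Mup3, Nudt7 and Elovl3), with a median of -0.02. That is 30% called, against 8.33% of all clusters. Cyp4a12b read 6.16, 3.56 and 2.88 in controls and 9.63, 9.41 and 8.34 in mutants. Control 13 stood well above the other controls, all mutants lay higher still, and the rise was 30.4-fold (limma adjusted p = 0.00204), while hypothyroid controls differed by 2.66 (not called, 0.0983). Cyp4a12a is a near-identical copy that read 6.36, 2.76 and 2.14 against 9.51, 9.53 and 7.25, so both may measure 1 transcript. Without both outlying arrays Cyp4a12b was called (limma adjusted p = 0.0247) and Cyp4a12a was not (0.0719). Mup5, of a family with many close copies, fell by 1.73 ± 0.198 (SE) and Mup3 by 2.13, the latter not called without both outlying arrays (limma adjusted p = 0.096). Of 19 female biased genes 0 rose and 2 fell, A1bg and Cyp17a1 (median -0.47). In limma 9 of the 19 (47.4%, against 29.2% of all clusters) had an unadjusted p under 0.05. The 2 calls are 10.5% of the list, near the 8.33% of all clusters.

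The growth hormone and IGF axis and the acute phase response held falls and 0 rises. Igfals (-1.12), which binds IGF in blood, Igfbp4 (-0.94), Onecut1 (-0.90) and Stat5a (-0.57) fell among 21 axis genes (median -0.17), of which Igfbp4 was the 1 called without both outlying arrays (limma adjusted p = 0.0495). Saa1 (-1.0), Saa4 (-0.94), Saa2 (-0.86) and Itih4 (-0.48) fell among 22 acute phase genes (median -0.34), and Saa2 was the 1 called without both outlying arrays, but its call was lost under 9 of 22 alternatives, among them leaving out control 14, control 15, hypothyroid control 17, mutant 5 or mutant 6 singly. In these lists 8 members (38.1%) and 12 members (54.5%) had an unadjusted p under 0.05, against 29.2% of all clusters. C4b (-0.52) was the 1 of 25 complement and coagulation genes that was called (4%, against 8.33% of all clusters), and was not called without both outlying arrays.

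Immediate early genes went both ways among 24 members: Gadd45b (1.95), Gadd45g (1.88) and Myc (0.66) rose and Egr1 (-0.88) and Fos (-0.67) fell (20.8% called, against 8.33% of all clusters). Gadd45b read 5.61, 4.98 and 5.47 in controls and 7.07, 7.48 and 7.36 in mutants and kept its call without both outlying arrays, as Egr1 and Fos did not. The call of Gadd45g (limma adjusted p = 0.0387) was lost under 13 of 22 alternatives, among them quantile normalization and leaving out any of 7 arrays singly. Of 25 cell cycle genes Ccnd1 and E2f1 (-0.43) fell and Pcna (0.66) rose, of which Ccnd1 alone was called without both outlying arrays. These calls are 12% of the list, against 8.33% of all clusters. Of 36 nuclear receptors and coregulators Pparg and Nr0b2 rose and 0 fell, which is 5.56% of the list, against 8.33% of all clusters. The call of Nr0b2 was lost under 17 of 22 alternatives. None of 18 clock genes was called (0), with 3 (16.7%, against 29.2% of all clusters) at an unadjusted p under 0.05 and a median of -0.02. Arntl (1.11) and Clock (0.69) had the largest differences.

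Several rises outside these lists were large, and those listed next were singled out after their values were seen. Sytl5, a vesicle transport gene, read 3.30, 3.24 and 3.46 in euthyroid controls and 5.43, 5.59 and 5.34 in hypothyroid mutants in 1 cluster, and both its clusters rose, by 2.12 and 1.99. The second was called under all 22 alternatives and the first under the 21 that tested it. In the first, controls read below every array's median, so its rise may be a lower bound. The transferrin receptor Tfrc (1.39), the retinol dehydrogenase Rdh11 (1.94), the glutathione peroxidase Gpx6 (2.11) and 3 genes of choline use, Slc44a1 (1.89 and 1.28 in 2 clusters), Chpt1 (1.29) and Chka (1.64), rose as well. Chka and 1 cluster of Slc44a1 were not called without both outlying arrays. By the naming rule Cyp26a1, a retinoic acid hydroxylase (2.89), Sucnr1, the succinate receptor (2.38), and the uncharacterised 9130409I23Rik (2.45) were among the 15 largest rises, of which 9130409I23Rik alone was called without both outlying arrays. Mmd2 (-1.51), among the 15 largest falls, was not called without them.

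Markers of other liver cells gave few calls. Of 12 Kupffer cell markers, 10 stellate cell, 5 bile duct, 10 lymphocyte, 9 granulocyte and 3 erythroid markers 0 were called in limma, with 0, 2, 0, 0, 0 and 1 at an unadjusted p under 0.05, a cut that 29.2% of all clusters passed. The median level was 3.03 for lymphocyte, 3.22 for granulocyte, 4.32 for bile duct and 4.42 for erythroid markers. These lie near or below the array medians, so the lack of calls says little about those cells. Kupffer cell markers averaged 5.55 to 5.70 in euthyroid controls and 5.14 to 5.92 in hypothyroid mutants. Of 10 endothelial markers Eng alone was called (-0.63, and not called without both outlying arrays), which is 10% of the list, near the 8.33% of all clusters. The adipocyte markers averaged 3.87 to 3.98 in controls and 4.26 to 4.41 in mutants, where Lpl was the 1 called member (14.3%, against 8.33% of all clusters). Their median difference was -0.18, and 2 of the 7 members had a positive difference, so they did not rise as a set.

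For most of the array the data held hypothyroid mutants within 2-fold of euthyroid controls, a wide bound beside the median size of 0.69 of called differences. The 95% interval lay wholly within 2-fold for 19844 clusters (91.1%), of which 774 were called. In the same comparison 29.2% of all clusters had an unadjusted p under 0.05 in limma, and in 28.6% the groups did not overlap. Levels within 2-fold are therefore not shown to be equal. A further 905 clusters were not called and had an interval that reached past 2-fold, so their level stayed unresolved with 3 mice a group. The share within 2-fold was lower, 83.9%, among clusters above the median level, and 81.1% with array SD as a covariate.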

How the data were processed

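RNA of each liver was extracted with Trizol and RNeasy columns and 200 ng was hybridised to Affymetrix mouse gene arrays, 1 array a mouse, per the labels' protocols. The authors deposited 1 table of log2 expression values, made with RMA per the submitters' processing notes (version, options and batches: not given in the sources used here). The values of 35557 transcript clusters were used as deposited. Those with exactly 1 gene symbol in the platform annotation (21789, of which 21698 matched RefSeq by gene identifier) were tested; 1621 with several and 12147 with no listed gene were tested apart. Arrays carry no read depth, so the number of mice limits precision.

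limma 3.58.1 in R 4.3.3 was fitted to all 12 arrays with 1 mean for each of 4 groups, so the spread was estimated over all groups (8 residual and 6.83 prior degrees of freedom), and a call is a Benjamini-Hochberg adjusted p under 0.05. Errors are SE of the fit, with 95% intervals. On simulated data with 200 changed clusters of 21789 in the comparison of hypothyroid mutants with euthyroid controls, 21% of 1.5-fold, 84.5% of 2-fold and 99% of 4-fold changes were recovered. The simulation drew noise independently for each cluster and held no outlying arrays or group difference in array SD. These shares therefore need not hold for the real arrays. The alternatives were quantile normalization, median centring, a filter on low clusters, all clusters, the compared groups alone, array weights, a minimum fold, array SD as a covariate, and leaving out arrays.

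Named genes were the 15 largest called rises and falls without overlap, up to 4 called members of each of 32 gene lists (2 members where 0 were called), up to 8 genes of each kind and direction that stayed off or returned, and 7 thyroid hormone genes. List members beyond those, and genes said to be so, were chosen after their values were seen. The comparison, its members and the lists were chosen with earlier results of these data known.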

Additional observations from a re-analysis of the deposited data

Results flagged for a closer look

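Clusters outside the named set held a signal as well: 41 of 13768 clusters with several gene symbols or no listed gene (0.298%) were called between hypothyroid mutants and euthyroid controls in limma, 19 higher and 22 lower, when adjusted among themselves. Of clusters with several symbols 13 of 1621 (0.802%) were called, and of those with no listed gene 28 of 12147 (0.231%). Groups of 3 mice were not tested for single outlying values.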

How the results depend on the processing

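Counts of calls moved with the processing, and in what follows each setting gives clusters higher then lower in hypothyroid mutants than in euthyroid controls, then those that stayed off, then those that returned. Testing every cluster of the table gave 357, 122, 63 and 8. Array weights, whose estimation stopped before converging and which weighted control replicate 15 at 29.2, gave 4757, 5084, 4259 and 95, with 8 interaction calls. A minimum fold of 1.2 gave 102, 22, 42 and 6, array SD as a covariate gave 11, 8, 16 and 3, and leaving out both outlying arrays gave 92, 40, 62 and 26. Quantile normalization without both outlying arrays, chosen after seeing the data, gave 69, 56 and 68 for the first 3. The compared groups alone gave 109 higher and 30 lower, quantile normalization gave 623 higher and median centring 293 lower. With clusters above the median level alone, 9136 of 10894 (83.9%, against 91.1% of all) lay within 2-fold.

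The comparisons behind these are hypothyroid against euthyroid controls, euthyroid mutants against euthyroid controls, and hypothyroid mutants against hypothyroid controls and against euthyroid mutants. Their calls were 104, 6, 19 and 105 with every cluster, 5680, 2733, 515 and 827 with array weights, and 90, 14, 20 and 66 with the minimum fold. With array SD all but the second were 137, 9 and 36. The second was 45 after quantile normalization, 14 without both outlying arrays and 10 with both changes.

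Leaving out 1 array at a time gave 138 to 3305 higher and 45 to 1888 lower, 86 to 759 that stayed off, 9 to 28 returned, 0 to 1 interaction calls and 18400 to 20825 within 2-fold. The other comparisons ranged from 134 to 864, 6 to 192, 21 to 133 and 89 to 620 in the same order. The cause of these moves was not tested. Of 100 called named clusters 58 kept their call whichever array was left out and 12 under all 22 alternatives, among them Dio1, Slc22a7, Nudt7, Scd2, Abcc4, Nqo1, Gstm4, both of Gstm3 and 1 of Sytl5. Mup5 and the other cluster of Sytl5 kept theirs under the 21 that tested them. Cyp26a1 changed sign to -0.10 with array SD as a covariate. No paired analysis was possible because the groups share no replicate numbers.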

Other observations

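Clusters named for ribosomal proteins were chosen as a group after their values were seen. Of 217 clusters of 67 genes 100 (46.1%; 24 genes) were called higher in hypothyroid mutants than in euthyroid controls in limma and 0 lower, against 5.88% higher among all clusters, with a median difference of 0.45, and all 13 clusters of Rpl23a, of 13, were higher. Many such clusters match close copies or pseudogenes and can share probes, so their number does not count independent genes. After quantile normalization 33 were called higher (median 0.23), without both outlying arrays 2 (median 0.34), and with array SD as a covariate 0 (median 0.17), with 0 called lower in each.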
